A study of Homo sapiens with 18 samples.

Results

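The 10 genes described here encode dioxygenases of the Jumonji C (JmjC) fold: the histone demethylases KDM2A, KDM2B, KDM5A, KDM5B, KDM5C, KDM6A and KDM6B, the ribosomal oxygenases MINA (current symbol RIOX2) and C14orf169 (RIOX1), and the lysine hydroxylase JMJD6. They were taken by symbol, 10 of the 23686 symbols in the deposited tables, and all 10 were found and passed the low-count filter in every fit. RNA was sequenced from 2 established lines of human diffuse large B-cell lymphoma, OCI-Ly1 and TMD8, treated with 0.01% DMSO as vehicle or with JIB-04, an inhibitor of Jumonji demethylases, at 150 nM or 500 nM. Each of the 6 groups had 3 libraries, prepared per the labels' protocols in technical triplicate. Medium and line cannot be told apart, since IMDM was used for OCI-Ly1 and RPMI 1640 for TMD8, and the labels give no treatment time, batch or date. The labels do not say whether the 3 libraries came from separate cultures, so the p-values measure only the spread between these libraries, which may be technical.

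JmjC enzymes use iron, oxygen and 2-oxoglutarate to hydroxylate their substrates, and on a methylated lysine this removes the methyl group. KDM6 enzymes act on methylated lysine 27 of histone H3, the mark laid down by the Polycomb complex PRC2, KDM5 enzymes on methylated lysine 4, a mark of active promoters, and KDM2 enzymes on methylated lysine 36. MINA and C14orf169 hydroxylate histidines of the ribosomal proteins RPL27A and RPL8, and JMJD6 hydroxylates lysines of splicing proteins such as U2AF2. Germinal-centre B cells and the lymphomas derived from them depend on the balance of lysine 27 methylation, and the lysine 4 methyltransferase KMT2D and its complex are often mutated in them. The values below are RNA levels and do not measure enzyme activity.

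The OCI-Ly1 libraries held 17579732 to 32651115 estimated counts each, the TMD8 libraries 9550092 to 20509500. The 4 B-cell markers MS4A1, CD79A, CD79B and PAX5 summed to 801 to 908 TPM (a length-corrected abundance) in OCI-Ly1 libraries. In TMD8 they summed to 725 to 845 with DMSO and 488 to 563 at 500 nM. The 4 activated B-cell markers (IRF4, TNFRSF13B, BATF, CCND2) went from 72.2 to 81.2 with DMSO to 147 to 155 at 500 nM in OCI-Ly1, and from 615 to 758 to 314 to 362 in TMD8. The 4 germinal-centre markers summed to 164 to 202 in OCI-Ly1, and in TMD8 to 32.4 to 40.4 with DMSO and 16.5 to 18.3 at 500 nM. The germinal-centre markers MME, BCL6 and MYBL1 were higher in OCI-Ly1, but LMO2 was at 0.0113 TPM with DMSO there and at 25.1 in TMD8. The 4 T-cell markers summed to 26.7 to 28.9 TPM in the OCI-Ly1 DMSO libraries, almost all of it CD3D and CD3G, and to 11.9 to 13.8 at 500 nM, with CD3E at 0.388 and CD2 at 0.639 with DMSO. In TMD8 that sum was at most 1.82, and the 4 myeloid markers summed to at most 0.611 in any library. The 4 epithelial or stromal markers went from 1.99 to 2.37 with DMSO to 4.44 to 4.86 at 500 nM in TMD8, and from 7.9 to 8.82 to 5.64 to 7.22 in OCI-Ly1, and FCGR3A was at 0 with DMSO in both lines. The part of these markers in the results below was not tested. In TMD8 the third 150 nM library lay nearest to the 500 nM libraries on the first principal component (13.9, against -4.52 and 4.53 for the other two).

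In DMSO-treated cells the 10 genes spanned a wide range of length-corrected levels. In OCI-Ly1 KDM5A was highest at 46.97 TPM ± 1.05 (SD, n = 3), above every other gene in every library. KDM5C (27.45 ± 0.647), C14orf169 (26.3 ± 1.66), JMJD6 (25.09 ± 0.513) and KDM2B (24.53 ± 1.07) followed, and neighbours in that order overlapped between libraries. KDM2A (22.21 ± 0.38), MINA (16.21 ± 0.958) and KDM6A (11.11 ± 1.01) came next, each clear of its neighbours. KDM6B (1.53 ± 0.0677) and KDM5B (0.261 ± 0.0928) were lowest, and 17.2% of the 18714 genes above 0 lay below KDM5B. In TMD8 the order was different. KDM2A (19.37 ± 1.86), KDM2B (17.46 ± 2.25), KDM5C (16.5 ± 1.13), MINA (16.03 ± 2.43), JMJD6 (15.65 ± 1.83) and KDM5A (14.58 ± 1.79) overlapped from neighbour to neighbour. C14orf169 (11.01 ± 0.645) stood below them, and KDM5B (6.39 ± 0.87), KDM6B (5.8 ± 0.425) and KDM6A (5.1 ± 0.817) overlapped at the bottom, KDM5B with 60.7% of the 19012 genes above 0 below it.

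**Figure D1:**
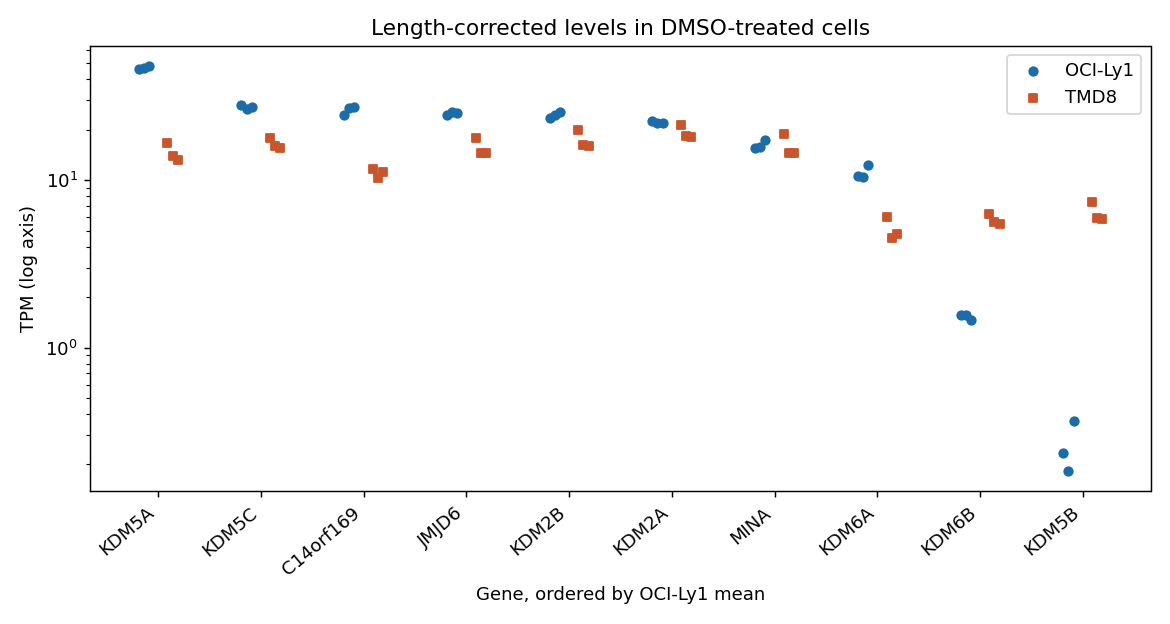
TPM (log axis) of the 10 genes in each DMSO library, OCI-Ly1 as circles and TMD8 as squares, ordered by the OCI-Ly1 mean. KDM6B and KDM5B are the 2 lowest genes in OCI-Ly1 and the 2 with more TPM in every TMD8 library than in every OCI-Ly1 library.

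The lines were compared at DMSO on normalised read counts, as CPM (counts scaled to library size by TMM), in 1 fit of all 18 libraries with edgeR's quasi-likelihood test and Benjamini-Hochberg adjustment over 16604 genes. Calls were made at an adjusted p of 0.05. Of the 10 genes 3 were higher in OCI-Ly1 and 7 lower, where 37.8% of all genes tested were called higher and 39% lower. KDM5B had 1.25 CPM ± 0.411 in OCI-Ly1 and 60.28 ± 3.35 in TMD8, a log2 difference of -5.54 ± 0.135 (SE; adjusted p = 1.35e-23). KDM6B had 7.79 CPM ± 0.542 against 57.65 ± 0.373, a log2 difference of -2.89 ± 0.0885 (adjusted p = 2.41e-21). Both kept that direction and call under every scaling tried. In bulk RNA, fewer cells of a type and less RNA per cell cannot be told apart. KDM5A (0.72) and C14orf169 (0.28) were higher in OCI-Ly1, also under every scaling. The lower values of KDM2A (-0.87), KDM2B (-0.47), KDM5C (-0.24), MINA (-0.98) and JMJD6 (-0.29) held on TMM counts but turned positive on log2(TPM + 1), at 0.19, 0.47, 0.7, 0.023 and 0.65. On that scale the median of all genes moved from -0.025 to 0.61, and with each library centred on its own median the 5 values were negative again. The centred values of KDM5C (-0.021) and JMJD6 (-0.071) were not called, and KDM5C was not called on library size alone. KDM6A was higher in OCI-Ly1 by 0.16 (adjusted p = 0.0458), a call lost without the third OCI-Ly1 DMSO library (adjusted p = 0.223), the second TMD8 DMSO library (0.25) or the third (0.0984).

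At 500 nM JIB-04 KDM6B, KDM5B and KDM6A were higher than with DMSO in both lines on TMM counts, although KDM5B in TMD8 turned to -0.017 on log2(TPM + 1). JMJD6 was lower in both, and MINA was lower in TMD8 and slightly higher in OCI-Ly1. In OCI-Ly1 5 of the 10 genes were called higher and 1 lower, against 27.7% and 25.9% of the 15638 genes tested. In TMD8 4 were called higher and 3 lower, against 29.9% and 30.7% of 15363 genes. The median change of the 10 genes was 0.12 in OCI-Ly1 and -0.012 in TMD8. With such backgrounds the counts alone are not a result about these genes. The split of calls moved with the scale. In OCI-Ly1 the 5 higher and 1 lower became 2 and 3 on centred log2(TPM + 1), and in TMD8 the 4 and 3 became 2 and 6 on log2(TPM + 1) and 4 and 5 when centred. The median change of all genes in TMD8 was 0.041 on TMM counts, 0.13 on library size alone and -0.22 on log2(TPM + 1). In OCI-Ly1 it was -0.0033 on TMM counts, 0.1 on log2(TPM + 1), and -0.12 after centring. Over all genes, the 4330 called higher and 4057 lower in OCI-Ly1 became 5739 and 2240 on log2(TPM + 1) and 2902 and 6079 when centred. In TMD8 the 4601 and 4723 became 1751 and 7581 on log2(TPM + 1).

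At 150 nM calls were made in TMD8 and not in OCI-Ly1, but of the 10 genes only KDM6B and MINA differed between the lines by the test of the difference itself. In OCI-Ly1 none of the 10 genes was called by edgeR in either direction, where 0.748% of all genes were higher and 0.141% lower. At an unadjusted p under 0.05 JMJD6 alone passed, and none was called under any alternative. In TMD8 3 genes were higher (KDM5B, KDM6A, KDM6B) and 2 lower (MINA, JMJD6), where 19.2% and 25% of all genes were called. Between the doses, 500 nM against 150 nM, 3 genes were higher and none lower in OCI-Ly1, where 25.1% and 21.1% of all genes were called. In TMD8 4 were higher and 1 was lower, where 13.7% and 15% were. Each dose was compared with the same DMSO libraries, so the 2 contrasts against DMSO of a line are not independent.

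**Figure D2:**
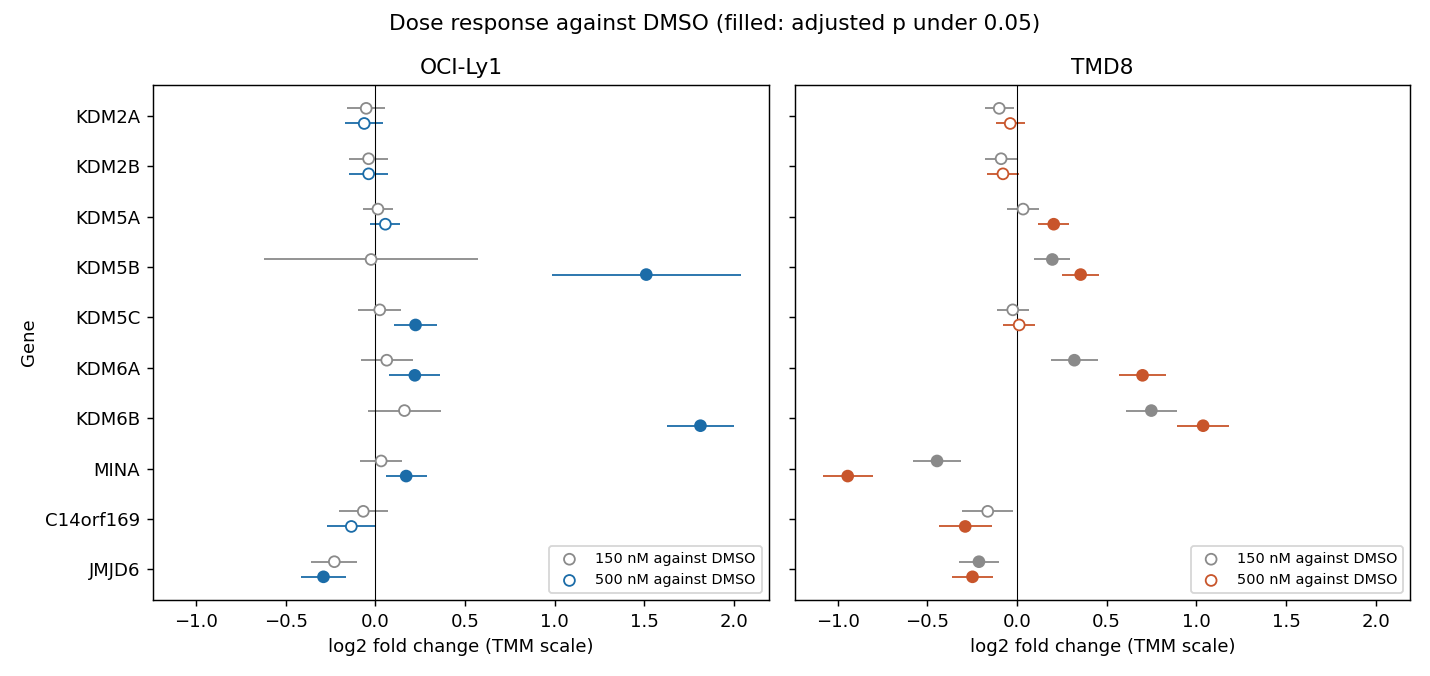
Log2 fold change against DMSO on the TMM scale for each gene in OCI-Ly1 (left) and TMD8 (right), with 95% intervals from the standard error; filled points were called (edgeR, adjusted p under 0.05). KDM6B and KDM5B lie farthest right in OCI-Ly1 at 500 nM, MINA farthest left in TMD8; on log2(TPM + 1) the TMD8 values of KDM5A, KDM5B and KDM5C at 500 nM turn negative.

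KDM6B, a lysine 27 demethylase that many stress and inflammatory signals induce, was the gene with the smallest adjusted p of the 10 at 500 nM in both lines. In OCI-Ly1 its libraries had 8.37, 8.45 and 7.46 CPM with DMSO, 9.61, 9.37 and 8.03 at 150 nM, then 28.96, 28.96 and 27.2 at 500 nM. The 150 nM libraries overlapped those with DMSO, and the 500 nM libraries lay above all others. The rise at 500 nM was 3.51-fold (log2 1.81 ± 0.0951, adjusted p = 3.38e-11), and the change at 150 nM was 0.16 ± 0.104 (adjusted p = 0.641). In TMD8 the libraries had 54.22, 55.28 and 55.69 CPM with DMSO, 80.04, 91.03 and 105.5 at 150 nM, then 112.7, 111.2 and 115.7 at 500 nM. All treated libraries were above DMSO, and the doses did not overlap each other. The rise was 1.68-fold at 150 nM (log2 0.75 ± 0.0729, adjusted p = 4.07e-07) and 2.05-fold at 500 nM (1.04 ± 0.0733, adjusted p = 1.41e-09). From 150 to 500 nM it was 1.22-fold (0.29 ± 0.0709, adjusted p = 0.00514), or 0.39 on the log2 scale without the third 150 nM library, and on log2(TPM + 1) that step was not called (0.075, adjusted p = 0.624). Tested directly, the response in OCI-Ly1 minus that in TMD8 was -0.57 ± 0.127 at 150 nM (adjusted p = 0.00171) and 0.81 ± 0.116 at 500 nM (adjusted p = 3.13e-06), so the line with the larger log2 response changed with the dose. In level, the OCI-Ly1 libraries at 500 nM overlapped the TMD8 libraries with DMSO in TPM (5.77 to 6.16 against 5.51 to 6.28) but not in CPM scaled within each line (27.2 to 28.96 against 54.22 to 55.69).

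KDM6A, also called UTX, is an X-linked enzyme of the same KDM6 family as KDM6B and a subunit of the lysine 4 methyltransferase complexes of KMT2C and KMT2D. In TMD8 it had 44.63, 38.18 and 41.25 CPM with DMSO, 47.17, 52.7 and 54.47 at 150 nM, then 67.55, 67.78 and 65.88 at 500 nM. The 3 groups did not overlap. The rise was 1.25-fold at 150 nM (log2 0.32 ± 0.0664, adjusted p = 0.000777) and 1.62-fold at 500 nM (0.7 ± 0.0663, adjusted p = 5.73e-08). On log2(TPM + 1) the values were smaller, 0.13 at 150 nM (adjusted p = 0.349) and 0.27 at 500 nM (adjusted p = 0.0336). In OCI-Ly1 it had 48.49, 48.24 and 54.07 CPM with DMSO and 57.98, 54.17 and 63.69 at 500 nM. The highest DMSO library and the lowest 500 nM library nearly touched. The rise of 0.22 ± 0.0723 was called (adjusted p = 0.0158) but lost without the first DMSO library (0.0673), the second (0.0708) or the third 500 nM library (0.104), and on centred log2(TPM + 1) (0.268). The response was smaller in OCI-Ly1 than in TMD8 at 500 nM by 0.45 ± 0.102 on the log2 scale (difference -0.45, adjusted p = 0.000764), but on log2(TPM + 1) the difference was 0.059 (adjusted p = 0.731).

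Reference promoter sequences were matched for KDM6A, KDM6B and KDM5B, shown because these 3 genes were called higher at 500 nM in both lines on TMM counts. The windows are the 250 bases before the most upstream start in RefSeq (GRCh38.p14; the series names hg19, so these coordinates are not those of the files), written 5′ to 3′ on the gene's strand. They lie at chrX:44872938-44873187 (plus strand), chr17:7833967-7834216 (plus strand) and chr1:202808422-202808671 (minus strand), immediately upstream of the first exon of that transcript. Capitals mark matches, on either strand, to the E-box CACGTG, the cyclic AMP response half-site TGACGT, the AP-1 motif TGANTCA, TGATGNAA, GAANNTTC, the CCAAT box and the GC box GGGCGG; overlapping matches run together.
KDM6A: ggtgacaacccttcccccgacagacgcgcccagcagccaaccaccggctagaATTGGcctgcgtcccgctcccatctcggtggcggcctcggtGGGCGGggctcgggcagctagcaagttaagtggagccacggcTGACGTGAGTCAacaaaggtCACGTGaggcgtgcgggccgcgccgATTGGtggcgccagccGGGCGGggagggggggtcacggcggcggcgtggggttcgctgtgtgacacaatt
KDM6B: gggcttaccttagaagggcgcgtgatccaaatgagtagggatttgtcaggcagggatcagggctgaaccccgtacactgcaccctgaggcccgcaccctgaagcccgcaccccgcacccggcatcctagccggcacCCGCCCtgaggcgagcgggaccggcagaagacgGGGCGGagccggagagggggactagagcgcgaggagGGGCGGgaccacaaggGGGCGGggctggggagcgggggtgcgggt
KDM5B: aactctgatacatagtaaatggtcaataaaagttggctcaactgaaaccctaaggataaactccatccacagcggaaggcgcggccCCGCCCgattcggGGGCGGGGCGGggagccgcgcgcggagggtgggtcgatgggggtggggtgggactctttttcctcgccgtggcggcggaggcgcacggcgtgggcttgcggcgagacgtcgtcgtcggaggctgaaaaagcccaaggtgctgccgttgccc
The KDM6A window held the half-site and the AP-1 motif overlapping each other, 115 and 110 bases upstream of the start, an E-box at 95, 2 CCAAT boxes and 2 GC boxes. The KDM6B window held 4 GC boxes and the KDM5B window 3, with no match to the other motifs. Of 35116 RefSeq windows of this length 6.34% held CACGTG, 7.1% TGACGT, 6.57% TGANTCA, 3.14% TGATGNAA, 5.78% GAANNTTC, 32% CCAAT and 42.6% GGGCGG. Over the 12 windows of the 7 genes with an entry, 8 held a GC box, 4 a CCAAT box, 2 the half-site and 1 each an E-box, an AP-1 motif and GAANNTTC. The GAANNTTC match lay in another KDM6B window, not shown (chr17:7839667-7839916), 64 bases upstream of its start. KDM2A, KDM2B, KDM5A and KDM5C were the other genes matched; MINA, C14orf169 and JMJD6 were not. A match is a description of the letters, and binding was not measured.

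KDM5B, a lysine 4 demethylase and corepressor, was the lowest of the 10 genes in OCI-Ly1 and rose there at 500 nM. In OCI-Ly1 it had 30, 16 and 44 estimated counts with DMSO (1.19, 0.939 and 1.77 CPM), 19, 42 and 27 at 150 nM (0.767, 1.73 and 1.44 CPM), then 142, 98 and 101 at 500 nM (4.23, 3.79 and 3.33 CPM). The 500 nM libraries lay above all others, and DMSO and 150 nM overlapped. The rise at 500 nM was 2.85-fold (log2 1.51 ± 0.269, adjusted p = 0.00014), with a 95% interval from 0.98 to 2.04, the widest of the 10 genes. Even at 500 nM the level was 0.828 TPM ± 0.0778, below the 5.86 to 7.39 TPM of the TMD8 libraries with DMSO. In TMD8 it had 60.7, 55.62 and 56.34 CPM with DMSO, 66.03, 64.85 and 66.82 at 150 nM, then 71.31, 74.89 and 74.68 at 500 nM. The 3 groups did not overlap. The changes were 0.2 ± 0.0515 at 150 nM (adjusted p = 0.0047) and 0.36 ± 0.0521 at 500 nM (adjusted p = 1.14e-05) on the TMM scale, but on log2(TPM + 1) they were 0.035 (adjusted p = 0.819) and -0.017 (adjusted p = 0.895), and centred 0.13 (adjusted p = 0.0495) and 0.24 (adjusted p = 0.0014). The step from 150 to 500 nM in TMD8 (0.16, adjusted p = 0.0295) was not called without 150 nM library 1 (0.0691), 2 (0.108) or 3 (0.0584) or 500 nM library 2 (0.12) or 3 (0.0991), nor by DESeq2 (0.112). The response in OCI-Ly1 exceeded that in TMD8 at 500 nM by 1.17 ± 0.207 (adjusted p = 4.56e-05), but by 0.1 (adjusted p = 0.368) on centred log2(TPM + 1). For this difference the median of all genes was 0.38 on plain log2(TPM + 1) and -0.07 when centred. The parts of the pseudocount of 1 and of the centring in the smaller value were not tested.

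KDM5A and KDM5C, the other 2 lysine 4 demethylases, changed little and in different lines. KDM5A had 233.7, 224.6 and 217.9 CPM with DMSO in TMD8 and 260.5, 258.2 and 260.7 at 500 nM, without overlap. That rise of 0.21 ± 0.0446 (adjusted p = 0.000646) was -0.16 (adjusted p = 0.174) on log2(TPM + 1) and 0.094 (adjusted p = 0.0783) centred. In OCI-Ly1 its change at 500 nM was 0.057 ± 0.0425 (adjusted p = 0.273), 0.19 and called on log2(TPM + 1) and -0.034 when centred. KDM5C had 150.2, 146.4 and 141.5 CPM with DMSO in OCI-Ly1 and 169.5, 180.1 and 162.4 at 500 nM, again without overlap. The rise was 0.22 ± 0.0613 (adjusted p = 0.00501) and was not called centred (0.12, adjusted p = 0.115). In TMD8 KDM5C differed from DMSO by 0.013 ± 0.0452 at 500 nM, with a 95% interval from -0.076 to 0.1 on TMM counts, and by -0.34 (adjusted p = 0.00556) on log2(TPM + 1). The difference between lines at 500 nM was 0.24 ± 0.0806 for KDM5C (adjusted p = 0.0159; 0.0513 without the second OCI-Ly1 500 nM library) and -0.12 ± 0.0655 for KDM5A (adjusted p = 0.145), which turned to 0.35 (adjusted p = 0.00555) on log2(TPM + 1). KDM5C and KDM6A have close copies on the Y chromosome, between which the counting could split reads, and this was not tested.

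KDM2A and KDM2B, CXXC-domain proteins that bind unmethylated CpG islands, were not called at either dose in either line on TMM counts. At 500 nM KDM2A differed from DMSO by -0.061 ± 0.054 and KDM2B by -0.037 ± 0.0547 in OCI-Ly1. The TMD8 values were -0.037 ± 0.0419 for KDM2A and -0.078 ± 0.0455 for KDM2B. The 95% intervals on TMM counts lay within -0.17 to 0.071. In OCI-Ly1 the centred log2(TPM + 1) value of KDM2A was called (-0.16, adjusted p = 0.0267) and that of KDM2B was not (-0.13, adjusted p = 0.0542). In TMD8 KDM2A had 190.1, 187.4 and 192.6 CPM with DMSO and 177.3, 178.1 and 177 at 150 nM. These did not overlap, but the change of -0.099 ± 0.0416 had an adjusted p of 0.0638. Every TMD8 library of KDM2A at 500 nM, and of KDM2B at both doses, also lay below those with DMSO. The edgeR adjusted p were 0.462 for KDM2A, and 0.123 (150 nM) and 0.15 (500 nM) for KDM2B. At 500 nM in TMD8 log2(TPM + 1) gave called values of -0.39 for KDM2A and -0.42 for KDM2B, where the median of all genes was -0.22, and centred values of -0.14 and -0.17 that were also called, while library size alone gave 0.056 and 0.016, not called.

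**Figure D3:**
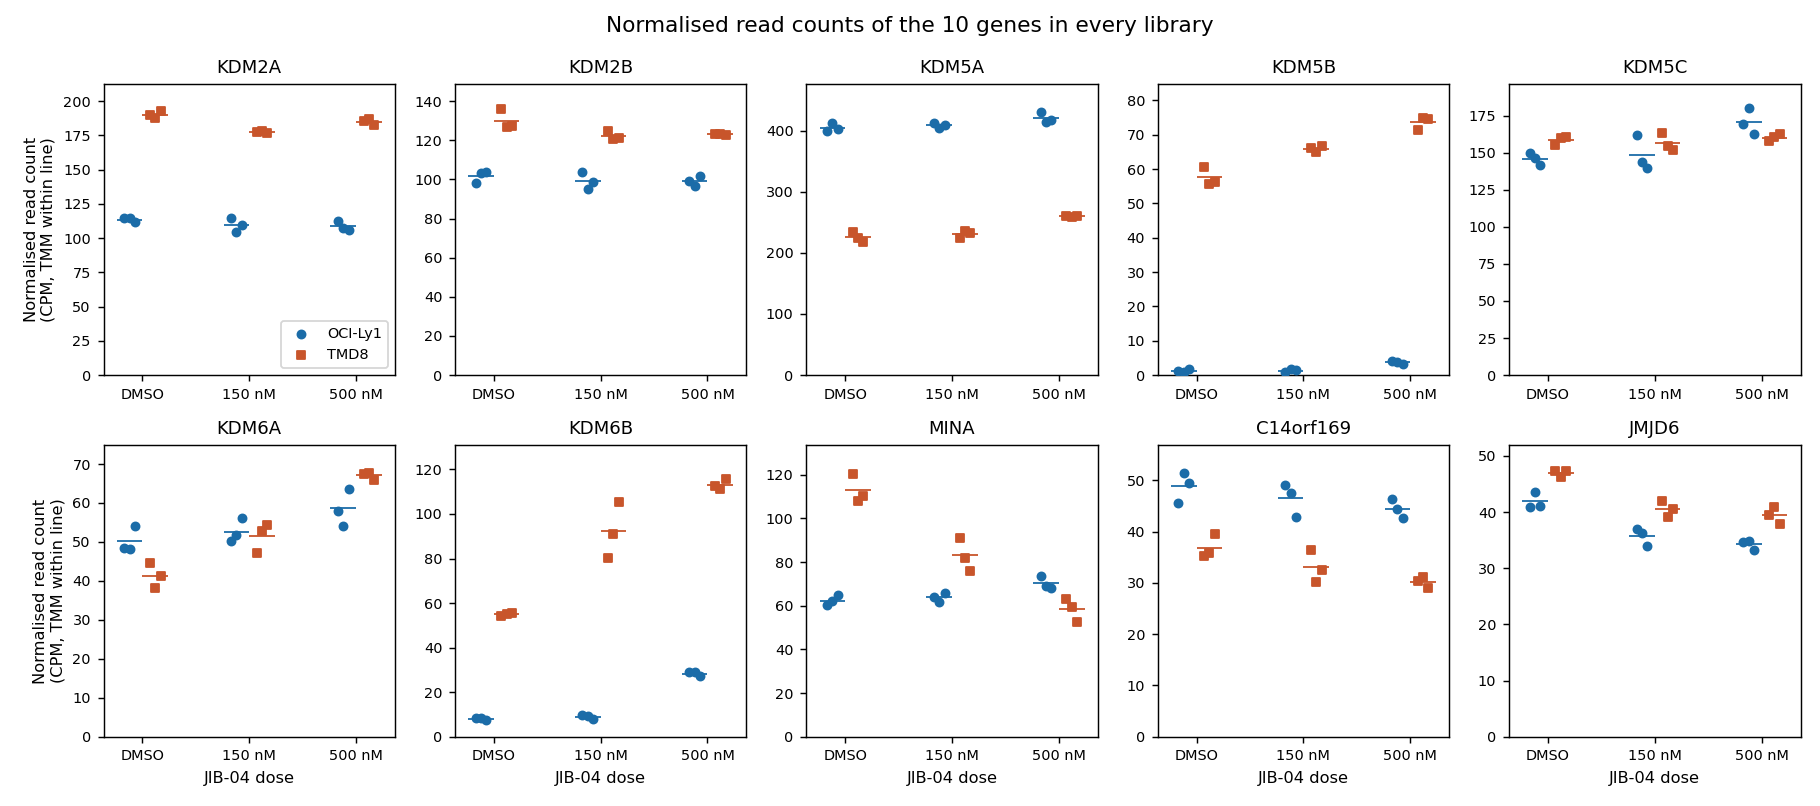
Normalised read count (CPM, TMM scaled within each line, axis from 0) of each gene in every library by JIB-04 dose, OCI-Ly1 as circles, TMD8 as squares, and horizontal bars at the group means. KDM6B rises from DMSO to 500 nM in both lines, MINA falls in TMD8 from 112.8 to 58.3 CPM, and KDM2A and KDM2B were not called at any dose on TMM counts but are called lower in TMD8 at 500 nM on both log2(TPM + 1) scales, as is KDM2A in OCI-Ly1 when centred; the rises of KDM5A and KDM5B in TMD8 at 500 nM turn negative on log2(TPM + 1).

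MINA, the nucleolar oxygenase of RPL27A, fell with dose in TMD8 and rose slightly in OCI-Ly1. In TMD8 it had 120.2, 108 and 110.2 CPM with DMSO, 90.92, 82.05 and 76.09 at 150 nM, then 63.07, 59.25 and 52.58 at 500 nM. The 3 groups did not overlap. It was at 0.734 of the DMSO level at 150 nM (log2 -0.45 ± 0.0679, adjusted p = 4.43e-05) and at 0.52 at 500 nM (-0.94 ± 0.0713, adjusted p = 3.32e-09), with a further -0.5 ± 0.0729 between doses (adjusted p = 7.37e-05). Those 3 values kept their direction and call under every alternative tried. In OCI-Ly1 it had 60.19, 61.97 and 64.84 CPM with DMSO, 64.05, 61.7 and 65.7 at 150 nM, then 73.53, 69 and 68.17 at 500 nM. The 500 nM libraries were above the rest, by 0.17 ± 0.0586 (adjusted p = 0.0193). That call was lost without DMSO library 1 (0.0904) or 2 (0.0612) or 500 nM library 1 (0.11), and centred (0.378). The difference between lines was 0.48 ± 0.0972 at 150 nM (adjusted p = 0.000662) and 1.15 ± 0.0985 at 500 nM (adjusted p = 7.07e-10).

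C14orf169, the nucleolar oxygenase of RPL8, is the other ribosomal member. In TMD8 it had 35.24, 35.77 and 39.54 CPM with DMSO and 30.32, 31.12 and 29.05 at 500 nM, without overlap. The change was -0.29 ± 0.0751 (adjusted p = 0.00294), and at 150 nM, where libraries overlapped, -0.16 ± 0.0725 (adjusted p = 0.0784; 0.0155 without the first 150 nM library and 0.0482 without the first DMSO library). In OCI-Ly1 the libraries overlapped at both doses, and the value at 500 nM was -0.13 ± 0.0695 (adjusted p = 0.115; 0.0474 without the first DMSO library). On log2(TPM + 1) that value was 0.0033 and centred it was -0.22, the latter called. The difference between lines at 500 nM was 0.19 ± 0.104 (adjusted p = 0.15), with a 95% interval from -0.019 to 0.39.

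RPL27A and RPL8 were described beside their enzymes. RPL27A, the MINA substrate, went from 917 CPM ± 52.3 with DMSO to 654.3 ± 27.02 at 500 nM in OCI-Ly1 (log2 -0.49 ± 0.0475, adjusted p = 1.48e-07), the line where MINA was not lower. In TMD8 it went from 709.7 ± 5.55 to 666.3 ± 12.7 (-0.091 ± 0.0492, adjusted p = 0.12), a value of 0.0021 on library size alone and called by DESeq2 (-0.1, adjusted p = 0.0486) and on both TPM scales. RPL8, the C14orf169 substrate, fell at 500 nM under every scaling, from 1274 CPM ± 50.1 to 1003 ± 17.1 in OCI-Ly1 (log2 -0.34 ± 0.0475, adjusted p = 9.33e-06). In TMD8 it fell from 1133 ± 2.55 to 965.2 ± 14.2 (-0.23 ± 0.0459, adjusted p = 0.000287).

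JMJD6 fell by a similar small amount in both lines on TMM counts. In OCI-Ly1 it had 40.96, 43.54 and 41.16 CPM with DMSO, 36.93, 36.24 and 33.89 at 150 nM, then 34.62, 34.93 and 33.23 at 500 nM. In TMD8 it had 47.3, 46.2 and 47.34 CPM with DMSO, 42.01, 39.16 and 40.48 at 150 nM, then 39.54, 40.92 and 37.95 at 500 nM. Every treated library was below every DMSO library of its line, and the doses overlapped each other. In OCI-Ly1 the changes were -0.23 ± 0.0656 at 150 nM (adjusted p = 0.146, unadjusted p = 0.00278) and -0.29 ± 0.0648 at 500 nM (adjusted p = 0.00115). In TMD8 they were -0.21 ± 0.0562 (adjusted p = 0.00531; 0.0627 on library size alone) and -0.25 ± 0.0578 (adjusted p = 0.0012). The difference between lines was -0.0083 ± 0.0839 at 150 nM and -0.011 ± 0.0843 at 500 nM, the latter with a 95% interval from -0.18 to 0.15, and 0.49 (adjusted p = 0.00065) on log2(TPM + 1), where the median of all genes was 0.38.

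In OCI-Ly1 the fall of JMJD6 at 500 nM was not called on log2(TPM + 1) (-0.05, adjusted p = 0.468) and was called when centred (-0.28, adjusted p = 0.00263), and its mean was 25.09 TPM with DMSO, 22.3 at 150 nM and 24.22 at 500 nM. The estimated count per TPM moves with the effective length of the transcripts that a gene's reads were assigned to, and dividing by the same ratio of C14orf169 removes the depth. For JMJD6 that relative length was 0.891, 0.896 and 0.907 in the OCI-Ly1 DMSO libraries, 0.88, 0.88 and 0.88 at 150 nM, then 0.813, 0.831 and 0.871 at 500 nM. The treated libraries all lay below DMSO, with mean changes of -2.04% and -6.67%. In TMD8 the change was 2.45% at 150 nM and -3.07% at 500 nM, and libraries overlapped DMSO at both doses. Of the other 8 genes none changed by more than 1.71% at any dose in either line, and their libraries overlapped. KDM2A differed between the lines instead, with 2.75 ± 0.0447 in OCI-Ly1 and 2.94 ± 0.031 in TMD8 with DMSO. Smaller differences without overlap were seen with DMSO for MINA (2.062 to 2.077 in OCI-Ly1, 2.1 to 2.13 in TMD8) and KDM5C (2.855 to 2.875, 2.876 to 2.887). Counts were whole within 0.001 in 18 of 18 libraries for KDM5B and C14orf169, and in none for KDM2A, MINA and JMJD6.

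**Figure D4:**
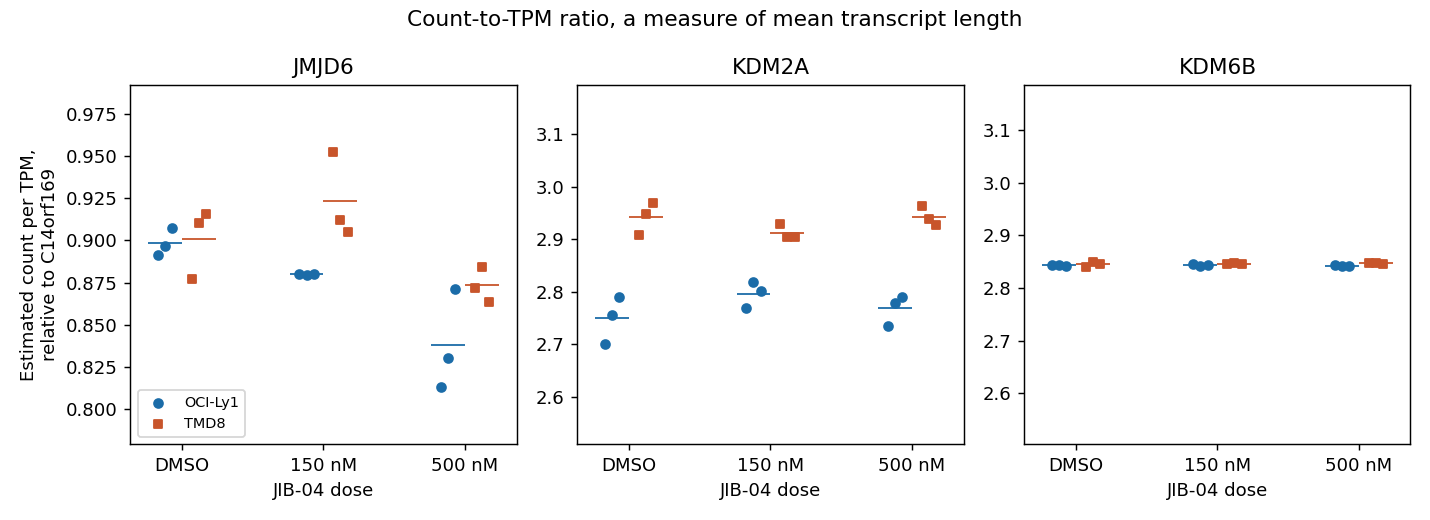
Estimated count per TPM of JMJD6, KDM2A and KDM6B divided by that of C14orf169 in each library, by dose, OCI-Ly1 as circles, TMD8 as squares, bars at the means (axes span ±12% around each gene's mean and do not start at 0). JMJD6 in OCI-Ly1 goes from 0.898 with DMSO to 0.838 at 500 nM, KDM2A differs between the lines, and KDM6B stays level.

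Of the 20 differences between lines 7 were called, the values given above for KDM6B and MINA at both doses and for KDM5B, KDM5C and KDM6A at 500 nM. At 150 nM 1 gene (MINA) was higher and 1 (KDM6B) lower, where 15% and 8.33% of all genes were called. At 500 nM 4 were higher (KDM5B, KDM5C, KDM6B, MINA) and 1 lower (KDM6A), where 28.2% and 18.1% were. On log2(TPM + 1) the split at 500 nM was 9 and 0, and on that scale the median of all genes was 0.38.

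Other genes of the pathways were described from 6 lists of 62 genes in all, each found in the tables. For every list, the background at 500 nM was 27.7% of all genes higher and 25.9% lower in OCI-Ly1, and 29.9% and 30.7% in TMD8. On log2(TPM + 1) all genes had 5739 higher and 2240 lower in OCI-Ly1, and 1751 and 7581 in TMD8. Centred these were 2902 and 6079, and 5014 and 5357. With such backgrounds the counts of a list alone are not a result about its genes. At 150 nM in OCI-Ly1 no gene of the lists was called, where 0.748% of all genes were higher and 0.141% lower. In TMD8 at 150 nM every list had calls, where 19.2% of all genes were higher and 25% lower. Higher and lower counts were 1 and 7 of the 16 H3K4 methyltransferase genes, and 3 and 5 of the 9 PRC2 genes. They were 1 and 4 of 9 for PRC1.1, and 2 and 5 of 9 for SIN3 and KDM5. They were 0 and 4 of 11 for translation oxygenases and substrates, and 1 and 2 of 8 for JMJD6 partners. The H3K4 methyltransferase list (16 genes), the counterpart of the KDM5 enzymes, had 6 higher and 3 lower at 500 nM in OCI-Ly1 (median log2 change 0.057, all genes -0.0033) and 5 and 8 in TMD8 (median -0.14, all genes 0.041). On log2(TPM + 1) OCI-Ly1 had 7 higher and 2 lower and TMD8 had 0 and 11, and centred these were 3 and 4, and 1 and 10. In OCI-Ly1 MLL2 (KMT2D) went from 37.39 CPM ± 3.29 to 64.53 ± 2.29 (log2 0.79 ± 0.0732, adjusted p = 8.17e-08). In TMD8 it was at 0.21 (adjusted p = 0.0102) on TMM counts, -0.15 (adjusted p = 0.233) on log2(TPM + 1) and 0.11 (adjusted p = 0.202) when centred. MLL4, the symbol taken here for KMT2B, was higher in both lines (0.69 and 0.49, OCI-Ly1 first here and below), in TMD8 not called on log2(TPM + 1). PAXIP1 (-0.61 and -0.43) and PAGR1 (-0.38 and -0.59), which bind each other, were lower in both. The core subunit WDR5 went from 75.15 ± 4.9 to 44.33 ± 0.125 CPM in TMD8 (-0.76 ± 0.0628, adjusted p = 1.03e-08) and was lower in OCI-Ly1 too (-0.2), there not called on library size alone or on log2(TPM + 1). HCFC1 was at 0.1 (adjusted p = 0.298) and -0.5 (adjusted p = 2.26e-08).

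The PRC2 list (H3K27 methyltransferase complex, 9 genes), opposed by KDM6A and KDM6B, had 3 genes called higher at 500 nM in each line, with 3 called lower in OCI-Ly1 and 4 in TMD8 and medians of -0.0067 and -0.045. The log2(TPM + 1) fit gave 3 and 1, and 3 and 6, and centred 3 and 4, and 3 and 5. The accessory subunits PHF1 (0.5 and 1.14) and JARID2 (0.44 and 0.82) were higher in both lines. EED, the subunit that reads methylated lysine 27, was lower in both (-0.58 ± 0.0618, adjusted p = 4.53e-07, and -0.25 ± 0.0628, adjusted p = 0.00251). PHF19 went from 177.8 CPM ± 0.282 to 66.06 ± 3.62 in TMD8 (-1.43 ± 0.0573, adjusted p = 1.4e-12) and was at 0.12 (adjusted p = 0.126) in OCI-Ly1. PHF19 in OCI-Ly1 was called on library size alone (0.2, adjusted p = 0.0138), and the other calls named for this list held on every scaling.

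The PRC1.1 list (9 partners of KDM2B) had 3 higher and 3 lower in OCI-Ly1 at 500 nM (median 0.17) and 2 and 5 in TMD8 (median -0.27). By log2(TPM + 1) the counts were 6 and 1, and 0 and 7, and centred 2 and 3, and 2 and 5. USP7, a deubiquitinase, was lower in both lines (-0.43 and -0.46). BCOR, the scaffold of the complex, was higher in both on TMM counts (0.46 and 0.28), but in TMD8 it was at -0.093 (adjusted p = 0.482) on log2(TPM + 1). The ubiquitin ligase RING1 was also higher in both (0.3 and 0.4), in TMD8 not called on log2(TPM + 1). BCORL1 was higher in OCI-Ly1 (1.09, adjusted p = 0.00501, from 1.1 CPM ± 0.48, and not called on centred log2(TPM + 1), adjusted p = 0.609) and lower in TMD8 (-0.42). RNF2 was at 0.17 (adjusted p = 0.0895) and -0.41 (adjusted p = 9.3e-05).

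The SIN3 and KDM5 corepressor list (9 genes) had 2 higher and 3 lower in OCI-Ly1 (median 0.045) and 2 and 6 in TMD8 (median -0.17). On log2(TPM + 1) these were 3 and 2, and 0 and 7, and centred 1 and 4, and 2 and 6. The deacetylases HDAC1 (-0.28 and -0.2) and HDAC2 (-0.27 and -0.74) were lower in both lines, with HDAC1 in TMD8 not called on library size alone and HDAC2 in OCI-Ly1 not on log2(TPM + 1). MORF4L1, a chromodomain protein, was lower in both (-0.47 and -0.33). SIN3B was higher in both on TMM counts (0.5 and 0.32), but in TMD8 it was at -0.054 (adjusted p = 0.674) on log2(TPM + 1). GATAD1 was at 0.065 (adjusted p = 0.446) and 0.47, the latter call lost on log2(TPM + 1) (adjusted p = 0.434).

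The list of other translation oxygenases and oxygenase substrates (11 genes) had 2 higher and 5 lower in OCI-Ly1 (median -0.15) and 2 and 6 in TMD8 (median -0.2). Values of log2(TPM + 1) gave 4 and 2, and 0 and 9, and centred 1 and 7, and 1 and 8. Besides the 2 ribosomal proteins, the release factor ETF1, a JMJD4 substrate, went from 321.3 CPM ± 17.2 to 195.7 ± 7.05 in TMD8 (-0.71 ± 0.0593, adjusted p = 1.1e-08). ETF1 (-0.15) and OGFOD1 (-0.21 and -0.5), the oxygenase of the ribosomal protein RPS23, were also lower in OCI-Ly1, there not called on library size alone or on log2(TPM + 1). DRG2 was at 0.13 (adjusted p = 0.135) and -0.55 (adjusted p = 5.74e-07). ALKBH8, a transfer RNA methyltransferase and oxygenase, was higher in OCI-Ly1 (0.54) and at -0.2 (adjusted p = 0.051) in TMD8. JMJD7 was higher in both (0.47, adjusted p = 0.0437, and 0.49, adjusted p = 0.0022), in OCI-Ly1 not called when centred (adjusted p = 0.12) and in TMD8 not on log2(TPM + 1) (adjusted p = 0.442).

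The JMJD6 partner list (8 genes) had 0 higher and 3 lower in OCI-Ly1 (median -0.062) and 1 and 2 in TMD8 (median -0.065). With log2(TPM + 1) there were 1 and 0, and 1 and 7, and centred 0 and 4, and 1 and 6. HEXIM1, an inhibitor of the elongation kinase P-TEFb, went from 66.85 CPM ± 5.72 to 151.1 ± 5.1 in TMD8 (1.17 ± 0.0679, adjusted p = 1.14e-10) and was at 0.21 (adjusted p = 0.098) in OCI-Ly1. The P-TEFb subunits CCNT1 (-0.31) and CDK9 (-0.15) were lower in TMD8, CDK9 not on library size alone (adjusted p = 0.338), and were at -0.012 and 0.034 in OCI-Ly1, not called. In OCI-Ly1 the splicing factors U2AF2 (-0.26) and LUC7L3 (-0.22) and the 7SK RNA-binding protein LARP7 (-0.19, adjusted p = 0.0335) were lower, none of them called on log2(TPM + 1), and LARP7 not on library size alone (adjusted p = 0.207). In TMD8 these 3 were at 0.043, -0.053 and -0.14, not called on TMM counts. There LUC7L3 and LARP7 were called lower on both log2(TPM + 1) scales, and U2AF2 was called higher on library size alone (0.14) and lower on log2(TPM + 1) (-0.33). Of the genes of the lists given above as not called on TMM counts, RNF2, DRG2 and HEXIM1 in OCI-Ly1 were called higher on library size alone and on log2(TPM + 1), and ALKBH8 in TMD8 was called lower on both log2(TPM + 1) scales. Differences between the lines were not tested for the genes of the lists.

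The genes most alike were taken by Pearson r of log2 CPM over the 18 libraries after each line's mean was subtracted, among 9948 or 9949 genes, as a description with no test, since all points share their libraries and the dose order. KDM6B was most like RGS16 (r = 0.991), SLC37A1 (0.987) and PABPC1L (0.987). MINA was most like AHR (0.977), ELOVL6 (0.974) and NET1 (0.973), with log2 changes at 500 nM of 0.22, 0.34 and 0.22 in OCI-Ly1, where TMD8 had -1.4, -1.46 and -0.68. KDM5B was most like FLJ33630 (0.941), TCEA1 (0.937) and TRAPPC6B (0.937). JMJD6 was most like the glycolytic enzymes PKM (0.929) and TPI1 (0.919) and the adaptor SIT1 (0.918), with changes of -0.54, -0.63 and -0.35 in OCI-Ly1, where TMD8 had -0.55, -0.69 and -0.39.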

How the data were processed

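RNA of 18 libraries was sequenced after ribosomal RNA depletion, paired-end on an Illumina HiSeq, per the labels' protocols. The authors deposited, for each line, a table of estimated counts and a table of TPM over 23686 gene symbols. The submitters' processing notes name kallisto 0.46.0, R 4.3.1, DESeq2 1.40.2 and hg19, with no role or order. The index, annotation and the step from transcripts to genes are not given in the sources used here. The deposited estimated counts were rounded to whole numbers. Genes were kept by edgeR's filterByExpr with the group as argument, scaled by TMM and tested with edgeR 4.0.16 (quasi-likelihood, R 4.3.3), with 9 libraries per line in 1 fit and all 18 for comparisons between lines. The p-values were Benjamini-Hochberg adjusted over all genes tested. Standard errors were taken as |log2 fold change| over the root of F, and a 95% interval is 1.96 standard errors either way. This is a normal approximation and is narrower than the edgeR test implies. For KDM2B in TMD8 at 150 nM it ran from -0.176 to -6.76e-05, where the unadjusted edgeR p was 0.0661. CPM is TMM scaled within the line, or over all 18 libraries for the DMSO comparison of lines. The deposited TPM served for levels between genes and, as log2(TPM + 1) with limma 3.58.1, as alternatives, plain or centred on each library's median.

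Further alternatives were library size alone, DESeq2 1.42.0, no filter, a replicate block and leaving out each library. The other scalings of the background lists were added after seeing the data. Scripts were tested on simulated data. Within groups, chi-square per degree of freedom of library pairs ran from 1.65 to 11.5, so none was counted as 1 library deposited 2 times. Named genes were the 10 members, RPL8 and RPL27A, for each list up to 3 called genes per line with the largest change at 500 nM and at least 5 CPM, and the 3 genes most alike to KDM6B, KDM5B, MINA and JMJD6. The 62 list genes were all matched, 5 by an older symbol; 1 further gene of the lists and 1 marker are not reported here and were left out of counts and sums. The members and lists were chosen with earlier results of these data known. Promoter windows came from RefSeq (GRCh38.p14), matched by symbol for 7 of 10 genes.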

Additional observations from a re-analysis of the deposited data

Results flagged for a closer look

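The response to JIB-04 differed between OCI-Ly1 and TMD8 by a test of the difference itself (edgeR, all 18 libraries, OCI-Ly1 minus TMD8, log2) in 7 of 20 cases. At 150 nM the differences were -0.57 for KDM6B and 0.48 for MINA, where 15% of all genes were called higher and 8.33% lower. At 500 nM they were 1.17 for KDM5B, 0.24 for KDM5C, -0.45 for KDM6A, 0.81 for KDM6B and 1.15 for MINA. There 28.2% of all genes were called higher and 18.1% lower, so the count of cases alone is not a result about these genes. The sign for KDM6A turns on log2(TPM + 1), to 0.059. The call for KDM5B was lost on centred log2(TPM + 1), and that for KDM5C without the second OCI-Ly1 500 nM library. Line and growth medium cannot be told apart in any of them.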

How the results depend on the processing

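Of 1200 member values under other settings 1036 kept their direction and side of the threshold, 32 were called in addition, 39 lost the call and 93 changed sign. Of those 93, 80 were called under neither setting, and the other 13 were all on log2(TPM + 1). Among 660 values with a library left out, 18 lost and 6 gained a call and 32 changed sign, each of these 32 called under neither setting. KDM6B in both lines and MINA in TMD8 at 500 nM against DMSO kept direction and call under every setting.

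Counts of members called moved as follows. In OCI-Ly1 at 500 nM against DMSO the higher count of 5 became 2 on centred log2(TPM + 1) and ran from 3 to 5 with a library left out, and the lower count of 1 became 0 on log2(TPM + 1), 3 centred, and ran from 1 to 2. At 500 nM against 150 nM there, the higher count of 3 became 6 on library size alone and 5 on log2(TPM + 1). In TMD8 at 150 nM the higher count of 3 became 1 on log2(TPM + 1), and the lower count of 2 became 1 on library size alone and 5 centred. At 500 nM the higher count of 4 became 2 and the lower count of 3 became 6 on log2(TPM + 1) and 5 centred. Between the doses the higher count of 4 became 2 without the low-count filter, 0 on log2(TPM + 1) and 2 centred, and the lower count of 1 became 2 on log2(TPM + 1). For the line difference at 150 nM the lower count of 1 became 2 on library size alone and ran from 1 to 2 with a library left out, 2 without the first TMD8 DMSO or the first TMD8 150 nM library. At 500 nM the higher count of 4 became 9 on log2(TPM + 1), and the lower count of 1 became 2 on library size alone and 0 on log2(TPM + 1). For DMSO between lines the higher count of 3 became 7 and the lower count of 7 became 2 on log2(TPM + 1). The cause was not tested.

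With DESeq2 the values with a changed sign were, for OCI-Ly1 500 nM against 150 nM KDM2B -0.0091, for TMD8 500 nM against 150 nM KDM2B -0.0048, for the line difference at 150 nM KDM5A 0.0085 and JMJD6 0.013, for the line difference at 500 nM JMJD6 0.015. On library size alone the values with a changed sign were, for OCI-Ly1 500 nM against DMSO KDM2A 0.026 and KDM2B 0.051, for OCI-Ly1 500 nM against 150 nM KDM2A 0.068, C14orf169 0.012 and JMJD6 0.019, for TMD8 150 nM against DMSO KDM5C 0.061. They also were, for TMD8 500 nM against DMSO KDM2A 0.056 and KDM2B 0.016, for the line difference at 150 nM KDM2A -0.029, KDM2B -0.027 and KDM5C -0.028, for the line difference at 500 nM KDM2A -0.030. On log2(TPM + 1) the values with a changed sign were, for OCI-Ly1 150 nM against DMSO KDM5B 0.0078, for OCI-Ly1 500 nM against DMSO KDM2A 0.064, KDM2B 0.098 and C14orf169 0.0033, for OCI-Ly1 500 nM against 150 nM KDM2A 0.11, C14orf169 0.041 and JMJD6 0.11. They also were, for TMD8 150 nM against DMSO KDM5A -0.11, for TMD8 500 nM against DMSO KDM5A -0.16, KDM5B -0.017 and KDM5C -0.34, for TMD8 500 nM against 150 nM KDM2A -0.16, KDM2B -0.20, KDM5A -0.046, KDM5B -0.053 and KDM5C -0.17. They also were, for the line difference at 150 nM KDM5A 0.16 and JMJD6 0.21, for the line difference at 500 nM KDM5A 0.35, KDM6A 0.059 and JMJD6 0.49, for OCI-Ly1 DMSO against TMD8 DMSO KDM2A 0.19, KDM2B 0.47, KDM5C 0.70, MINA 0.023 and JMJD6 0.65. On centred log2(TPM + 1) the values with a changed sign were, for OCI-Ly1 500 nM against DMSO KDM5A -0.034, for OCI-Ly1 500 nM against 150 nM KDM2B -0.090 and KDM5A -0.048, for TMD8 150 nM against DMSO KDM5A -0.017. They also were, for TMD8 500 nM against DMSO KDM5C -0.086, for TMD8 500 nM against 150 nM KDM2A -0.0066, KDM2B -0.038 and KDM5C -0.014, for the line difference at 150 nM KDM5A 0.045 and JMJD6 0.097. They also were, for the line difference at 500 nM KDM2A -0.00017 and JMJD6 0.035. Without the low-count filter the values with a changed sign were, for OCI-Ly1 500 nM against 150 nM KDM2B -0.020, for TMD8 500 nM against DMSO KDM5C -0.011, for TMD8 500 nM against 150 nM KDM2B -0.029 and KDM5C -0.0036, for the line difference at 500 nM JMJD6 0.0086. With the replicate block the values with a changed sign were, for OCI-Ly1 500 nM against 150 nM KDM2B -5.3e-05. With a library left out the ranges that crossed 0 were, for OCI-Ly1 150 nM against DMSO KDM5B from -0.30 to 0.28 and KDM5C from -0.039 to 0.067, for OCI-Ly1 500 nM against 150 nM KDM2A from -0.051 to 0.014 and KDM2B from -0.038 to 0.026, for TMD8 150 nM against DMSO KDM5C from -0.057 to 0.028. Further such ranges were, for TMD8 500 nM against DMSO KDM5C from -0.0054 to 0.022, for TMD8 500 nM against 150 nM KDM2B from -0.013 to 0.025 and KDM5C from -0.0040 to 0.066, for the line difference at 150 nM KDM5A from -0.043 to 0.017 and KDM5B from -0.52 to 0.065 and KDM5C from -0.016 to 0.099 and JMJD6 from -0.036 to 0.029. Further such ranges were, for the line difference at 500 nM KDM2A from -0.016 to 0.025 and JMJD6 from -0.037 to 0.024.

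Same-numbered libraries deviated together with r from -0.0545 to 0.146, over 0.1 in 4 of 18 pairs. Those 4 were all DMSO against 150 nM: the first libraries (OCI-Ly1 0.123, TMD8 0.125) and the third (OCI-Ly1 0.146, TMD8 0.141). The second libraries gave 0.0109 (OCI-Ly1) and -0.0545 (TMD8). Differently numbered DMSO and 150 nM libraries gave r from -0.19 to 0.105. Same-numbered pairs with a 500 nM library gave r from -0.0524 to 0.0234. No pairing of the 500 nM libraries by number was thus visible, and the numbers may pair some DMSO and 150 nM libraries. With 3 libraries per group a low r cannot show that libraries were unpaired. Not every library correlated best with its own number. The replicate block moved 2 member calls: KDM6A between doses in OCI-Ly1 was called (0.15, adjusted p = 0.035, edgeR) and KDM6A between lines with DMSO was not (0.11, adjusted p = 0.222). It took the OCI-Ly1 150 nM count over all genes from 117 higher and 22 lower to 159 and 48. The same count was 220 and 103 without the low-count filter, 190 and 50 with DESeq2 and 60 and 1 on log2(TPM + 1). With a library left out it ran from 60 to 264 higher and 5 to 75 lower, the ends being without the second and the first 150 nM library.

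Depth limits KDM5B in OCI-Ly1, with 16 to 44 counts per DMSO library. Leaving a library out of 3 leaves 2 and a wider error. Estimated counts carry the program's split between transcripts.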
